A study of Mus musculus with 26 samples.

Results

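Gene expression in the left lung of Il10-/- mice after 72 hr of 0.3 ppm O3 (ozone) was set against that of Il10+/+ mice after the same exposure. The arrays were chosen by their titles, namely the 3 arrays titled B6.IL10 72 O3 and the 3 titled C57 72 ozone, 6 of the 26 arrays in the series. All mice were males of 6 to 8 weeks bought from Jackson Labs. The Il10-/- mice were of strain B6.129P2-Il10tmlCgn/J as the labels spell it, which carries a targeted Il10 allele, and the Il10+/+ mice were of strain C57BL/6. Each genotype is therefore 1 purchased strain, and the Il10 allele cannot be told apart from any other difference between the strains. The other 20 arrays hold both genotypes after 24 and 48 hr of O3 (3 arrays per genotype and time) and in filtered air for 24 and 48 hr (2 per genotype and time). No array of 72 hr in air was analysed here. The labels do not say that arrays of a group came from separate mice, so the p-values measure only the spread between these arrays, which may be technical.

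Interleukin-10 is a cytokine that restrains inflammation. It binds a receptor on macrophages and other leukocytes, activates STAT3 through Janus kinases, and lowers the transcription of inflammatory cytokines and chemokines, in part through SOCS3. O3 is an oxidant gas that injures cells of the airways and the terminal bronchioles, draws neutrophils into the lung, and is followed by division of epithelial cells that repair the damage. The comparison asks which transcripts differed with the Il10 genotype late in a continuous exposure.

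The values are log2 signals of 1 probe set per gene, for 12394 genes. Differences are Il10-/- minus Il10+/+ on the log2 scale, so that 1 is a doubling, with SE from a limma model over 25 arrays. A gene was called where its p, adjusted by the Benjamini-Hochberg method over all genes, was under 0.05. All 6 arrays had strong signals of surfactant genes. The surfactant protein gene Sftpc lay between 14.31 and 14.45 on the Il10-/- arrays and between 14.36 and 14.46 on the Il10+/+ arrays. Pearson's r over genes was 0.9913 to 0.9963 within the groups and 0.9916 to 0.996 between them. One array outside the comparison was unlike the others of its label. The library labelled Il10-/- air 48 hr replicate 1 had an Il10 value of 3.87. The range was 6.29 to 6.72 on the other 3 Il10-/- air arrays and 3.92 to 4.25 on the Il10+/+ air arrays. That library enters the comparison at 72 hr through the model's estimate of spread alone, and the count of calls is given with and without it.

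Of the 12394 genes, 3 were higher in Il10-/- than in Il10+/+ lungs after 72 hr of O3 (0.0242%), namely Il10, Wdfy1 and Ctse, and 0 were lower (0%; limma, adjusted p under 0.05). At an unadjusted p under 0.05, 110 genes lay higher (0.888%) and 175 lower (1.41%). In 9.43% of genes the arrays of the genotypes did not overlap, in either direction. The median difference over all genes was -0.02 and the median size of a difference 0.08. A positive difference was seen in 5497 of the 12394 genes, and counts of positive list members below are to be read beside that share. A difference of over 1 was seen in 25 genes, 12 of them positive and 13 negative. Without the library labelled Il10-/- air 48 hr replicate 1 in the model, 6 genes were called, with Nnt added as higher and Chil1 and Ramp1 as lower.

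**Figure D1:**
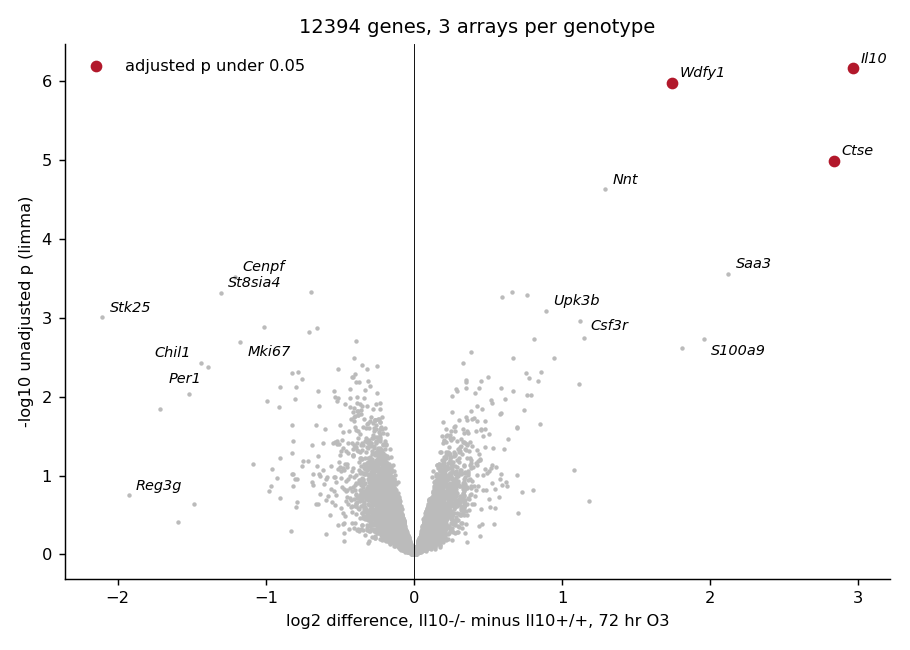
Each point is 1 of 12394 genes, with the log2 difference between Il10-/- and Il10+/+ lungs at 72 hr O3 on the x axis and -log10 of the unadjusted limma p on the y axis. The 3 red points (Il10, Wdfy1, Ctse) passed an adjusted p of 0.05, Nnt lies just below them, and no gene left of 0 is red.

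The probe set for Il10 itself had log2 values of 7.02, 7.11 and 6.93 on the 3 Il10-/- arrays, against 4.03, 4.12 and 4.02 on the 3 Il10+/+ arrays. The mutant arrays thus lay far above the wild type arrays, with little spread in either group. The difference was 2.96 (SE 0.43), or 7.80-fold (limma, adjusted p = 0.00649). The Il10+/+ values are low on this scale, and the size of the fold depends on them. In the paper, Il10 mRNA was not detected in lungs of Il10-/- mice after air or O3. The array signal runs the other way, and the reason was not tested. The gene has a single probe set here, and which stretch of the transcript it reads was not given in the sources used here. The signal therefore does not test whether the allele makes a working protein. It set the labelled genotypes apart at every O3 time on the arrays used. It cannot show, as a lost transcript would, which of them is the mutant.

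Wdfy1 encodes an endosomal protein with WD repeats and a lipid-binding FYVE domain that has been described as an adaptor of Toll-like receptors. Its values were 8.20, 8.28 and 8.18 in Il10-/- lungs, against 6.54, 6.49 and 6.40 in Il10+/+ lungs. The groups were tight and far apart, with a difference of 1.74 (SE 0.26; 3.35-fold; adjusted p = 0.00649). A second probe set of Wdfy1 gave a difference of 2.35 (SE 0.28, adjusted p over all probe sets 0.000988), and another gave 0.34 (SE 0.21, adjusted p = 1).

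Ctse encodes cathepsin E, an aspartic protease of endosomes that is made by gastric epithelium and by antigen-presenting cells. It measured 8.71, 8.40 and 9.14 in Il10-/- lungs, against 5.79, 5.83 and 6.12 in Il10+/+ lungs. Every Il10-/- array lay over 2 above the highest Il10+/+ array. The difference was 2.84 (SE 0.49; 7.15-fold; adjusted p = 0.0423). Its second probe set did not separate the genotypes (6.38, 6.61 and 6.63 in Il10-/- lungs, against 6.10, 6.29 and 7.06 in Il10+/+ lungs, difference 0.06). With any 1 of the 6 arrays left out, the difference in Ctse stayed between 2.64 and 3.01 but its adjusted p was 0.118 to 0.381, so in the model used here the call needs all 6. It was also lost with all 26 arrays (adjusted p = 1) and with the mean of its probe sets (difference 1.45, adjusted p = 0.0562). For Il10 and Wdfy1 the adjusted p under the same 6 fits ran from 0.0412 to 0.0689 and from 0.0415 to 0.0689. Leaving out Il10-/- replicate 2 or Il10+/+ replicate 2 left 0 genes called (limma; 387 and 243 genes at an unadjusted p under 0.05). These fits take their spread from the air arrays too. The SD of Ctse was 1.457 on the Il10-/- air arrays, against 0.371 and 0.181 in the groups compared. For Il10 it was 1.343, against 0.092 and 0.055. Ctse was called without the library labelled Il10-/- air 48 hr replicate 1, and with only the 6 arrays compared. Leaving out 1 of the 6 arrays in those settings was not tested.

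The first gene outside the threshold was Nnt, the nicotinamide nucleotide transhydrogenase of the inner mitochondrial membrane, which uses the proton gradient to make NADPH and in which the C57BL/6J strain is known to carry a deletion. Nnt measured 8.93, 8.88 and 8.72 in Il10-/- lungs, against 7.54, 7.61 and 7.50 in Il10+/+ lungs. These groups did not overlap, and the difference was 1.29 (SE 0.24, adjusted p = 0.0724). Its second probe set gave 1.41 (SE 0.37). Among the 9 measured enzymes of NADPH supply, Nnt had the largest difference, and the median of the list was 0.06.

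**Figure D2:**
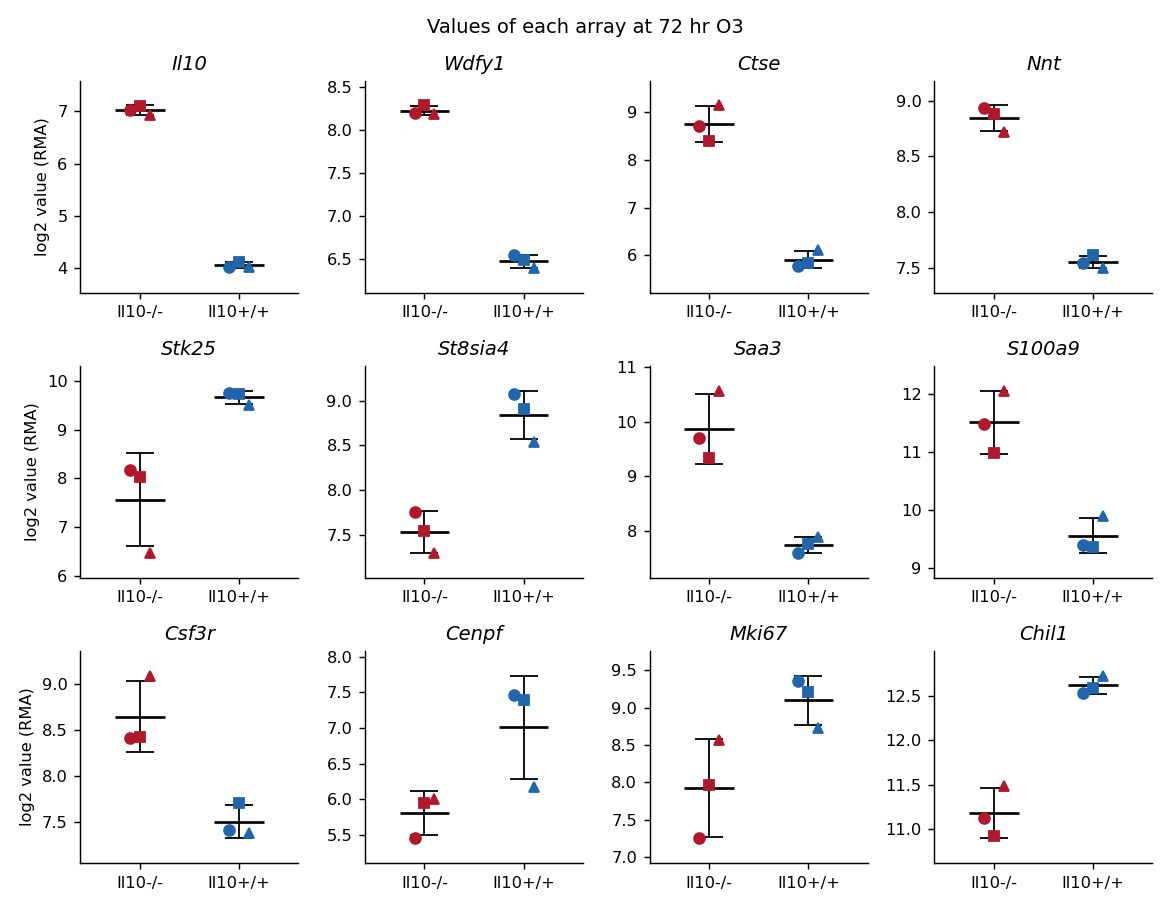
Log2 values of 12 genes on each array at 72 hr O3, with Il10-/- left of Il10+/+ in every panel; circles, squares and triangles are replicates 1, 2 and 3, and bars are the mean and SD of 3 arrays. The genotypes do not overlap in any panel. In Stk25, Csf3r and Saa3, Il10-/- replicate 3 lies well apart from the other 2 of its group, as does Il10+/+ replicate 3 in Cenpf.

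All 3 called genes lie on chromosome 1, the chromosome of Il10. In the GRCm38.p6 assembly, Il10 spans 131019845 to 131024970 of chromosome 1, Ctse starts 0.62 Mb beyond the start of Il10, and Wdfy1 starts at -51.32 Mb from it. Of 708 measured genes on chromosome 1, 8 differed by over 1 either way (1.13%), against 17 of 11662 on the other chromosomes (0.146%). The share with an unadjusted p under 0.05 was 5.37% on chromosome 1 and 2.09% elsewhere, beside 2.3% of all genes. Within 1 Mb of the start of Il10 it was 3 of 26 genes (11.5%). These counts describe the arrays and carry no test, since neighbouring genes are not independent.

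The other genes of chromosome 1 with differences over 1 did not pass the threshold. Stk25, a serine/threonine kinase of the Golgi, measured 8.18, 8.04 and 6.47 in Il10-/- lungs, against 9.75, 9.74 and 9.51 in Il10+/+ lungs (difference -2.10, SE 0.55, adjusted p = 0.935). All 3 Il10-/- arrays lay below all 3 Il10+/+ arrays, and Il10-/- replicate 3 lay well under the other two. St8sia4, which builds polysialic acid on cell-surface glycoproteins, measured 7.76, 7.55 and 7.30 in Il10-/- lungs, against 9.07, 8.91 and 8.54 in Il10+/+ lungs (difference -1.31, SE 0.32, adjusted p = 0.616). Chil1, a secreted chitinase-like protein of macrophages and epithelium, measured 11.12, 10.93 and 11.48 in Il10-/- lungs, against 12.53, 12.59 and 12.72 in Il10+/+ lungs (difference -1.44, SE 0.44). Both genes had non-overlapping groups, and a second probe set of St8sia4 gave a difference of -0.34 (SE 0.19). Pam, the enzyme that amidates the ends of peptide hormones, gave 7.69, 7.63 and 7.16 in Il10-/- lungs, against 6.67, 5.99 and 6.49 in Il10+/+ lungs (difference 1.11, SE 0.37).

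Closer to Il10, the late-endosomal GTPase gene Rab7b, 0.67 Mb beyond the start of Il10, measured 5.95, 6.08 and 5.90 in Il10-/- lungs, against 6.91, 6.47 and 6.82 in Il10+/+ lungs (difference -0.75, SE 0.25). Its second probe set ran the other way, with all Il10-/- arrays above all Il10+/+ arrays (0.30, SE 0.12), and the mean of both gave -0.23. Ramp1, a subunit of the receptor for calcitonin gene-related peptide, lies at -39.84 Mb from Il10 and had a difference of -0.65 (SE 0.18). Fcgr3, an activating receptor for IgG on myeloid cells, lies 40.03 Mb beyond it and had a difference of 0.33 (SE 0.10). Neither overlapped between the groups, and differences on the chromosome thus ran in both directions.

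**Figure D3:**
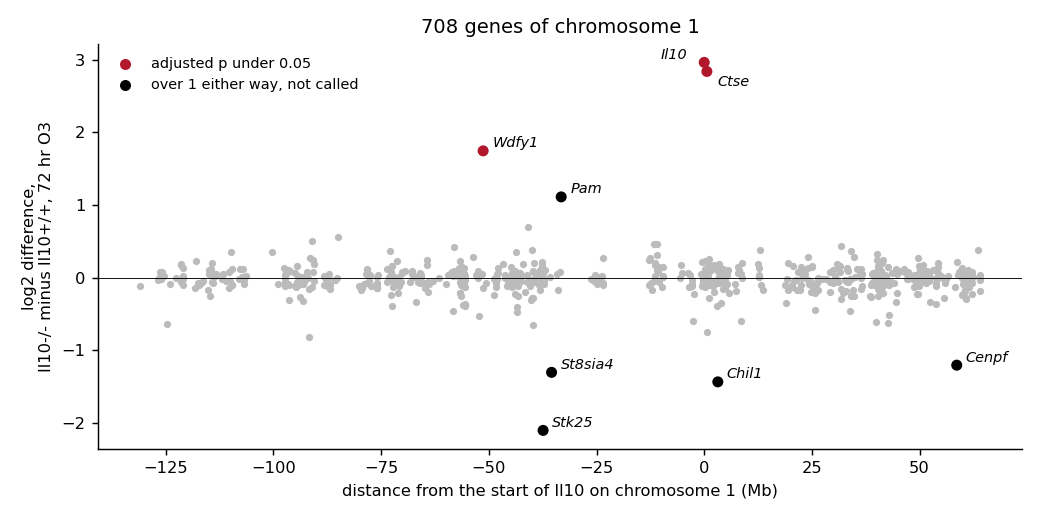
The log2 difference at 72 hr O3 of each of 708 genes of chromosome 1, against the distance in Mb of its start from the start of Il10. The 8 genes over 1 either way are named, with the 3 called genes in red; they lie from -51.32 Mb to 58.62 Mb from Il10, with both signs.

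The arrays of 24 hr, 48 hr and air share no array with the comparison at 72 hr, so the 25 genes that differed by over 1 at 72 hr were read on them. At 48 hr of O3, 14 of the 25 (56%) had non-overlapping groups in the same direction as at 72 hr and 0 in the opposite one, against 5.74% of all genes. At 24 hr this held for 15 of 25 (60%), against 13% of all genes. In air it held for 3 of 25 (12%) and, without the library labelled Il10-/- air 48 hr replicate 1, for 10 of 25 (40%), against 3.02% and 4.6% of all genes. The 8 genes of chromosome 1 made up 7, 8 and, without that library in air, 7 of these. Cenpf overlapped between the genotypes at 48 hr and in air.

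For the called genes, the genotype difference in the other exposures was as follows. Il10 differed by 3.197 at 48 hr (SE 0.43, adjusted p = 0.00269), 3.40 at 24 hr (SE 0.48, adjusted p = 0.0015) and 1.80 in air (SE 0.37, adjusted p = 0.111). Wdfy1 differed by 1.502 at 48 hr (adjusted p = 0.0533), 1.14 at 24 hr (adjusted p = 0.074) and 1.52 in air (adjusted p = 0.0124). Ctse differed by 2.46 at 48 hr (adjusted p = 0.194), 3.16 at 24 hr (adjusted p = 0.00965) and 1.73 in air (adjusted p = 0.242). The air values of Il10 and Ctse hold the library labelled Il10-/- air 48 hr replicate 1, without which the differences of the means were 2.46 and 2.43. In calls, 1 gene was shared with 48 hr (Il10, of 1 called there), 2 with 24 hr (Il10 and Ctse, of 82) and 1 with air (Wdfy1, of 1). Over all genes 0.00807% were called higher at 48 hr and in air, and 0.169% higher and 0.492% lower at 24 hr, while 2.69%, 6.99% and 12.3% had an unadjusted p under 0.05 at 48 hr, in air and at 24 hr.

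The genes called at 72 hr were not shown to differ by exposure. Tested directly, the genotype difference at 72 hr differed from that at 48 hr in 0 genes, from that at 24 hr in 0 and from that in air in 0 (limma, lowest adjusted p 1, 0.541 and 1; 134, 650 and 309 genes, or 1.08%, 5.24% and 2.49%, at an unadjusted p under 0.05). The comparison with 24 hr rests on 2 Il10-/- arrays and has no stable count: with Il10-/- O3 24 hr replicate 1 or 3 left out, 133 and 523 genes were called.

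**Figure D4:**
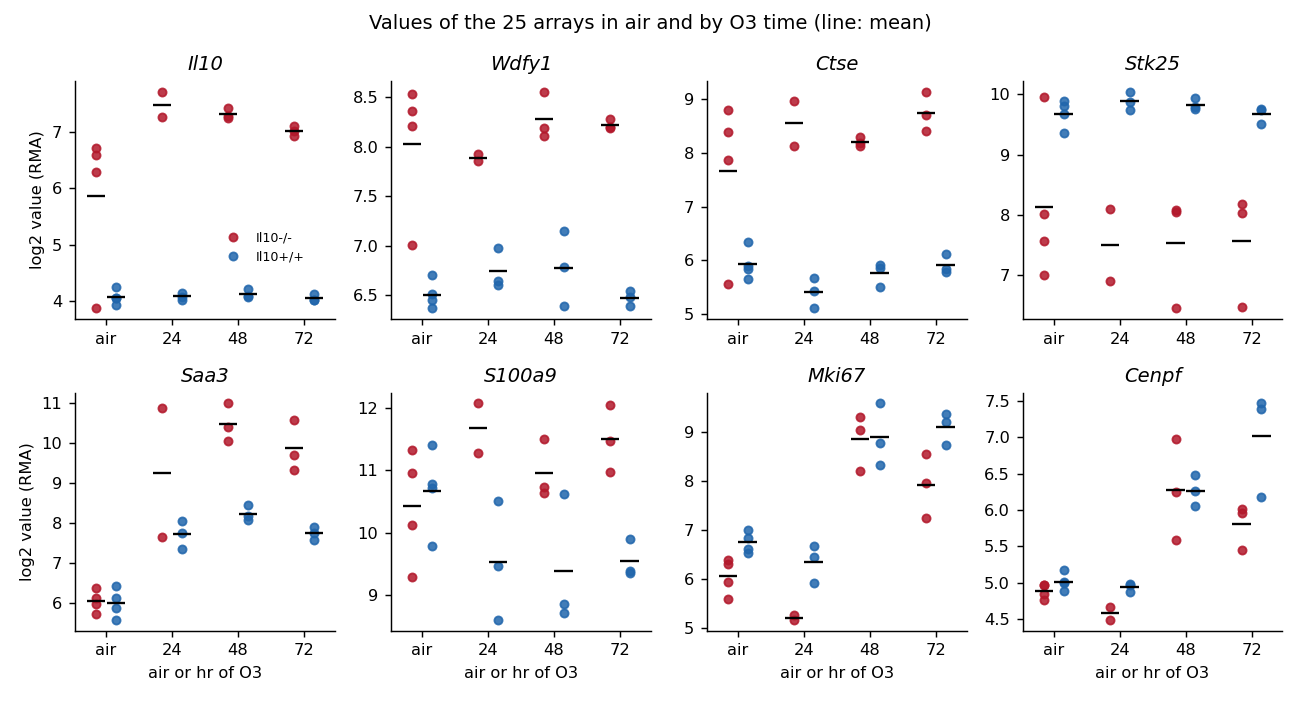
Log2 values of 8 genes on the 25 arrays used, in air and after 24, 48 and 72 hr of O3, with Il10-/- (red) left of Il10+/+ (blue) and a line at each group mean. Il10, Wdfy1, Ctse and Stk25 are apart at every O3 time, the Saa3 means differ by 0.05 in air, and Mki67 and Cenpf are apart at 72 hr but not at 48 hr.

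Outside chromosome 1 the 3 largest positive differences belonged to the acute phase gene Saa3 and the neutrophil genes S100a9 and S100a8, none of which was called. Saa3 encodes a serum amyloid A made in inflamed tissue. It measured 9.70, 9.33 and 10.58 in Il10-/- lungs, against 7.59, 7.76 and 7.89 in Il10+/+ lungs. The lowest Il10-/- array lay above the highest Il10+/+ array, with a difference of 2.12 (SE 0.49; 4.36-fold; adjusted p = 0.616). The Saa3 difference was 2.26 at 48 hr (SE 0.49), 1.54 at 24 hr (SE 0.55) and 0.05 in air (SE 0.42). At 24 hr the 2 Il10-/- arrays measured 7.64 and 10.87, against 7.36 to 8.04 in Il10+/+ lungs, so the groups overlapped. Set against air, the difference at 72 hr was larger by 2.08 (SE 0.65, unadjusted p = 0.00415, adjusted p = 1).

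S100a9 and S100a8 encode the subunits of calprotectin, the calcium- and zinc-binding protein that fills the cytosol of neutrophils. S100a9 measured 11.48, 10.97 and 12.05 in Il10-/- lungs, against 9.38, 9.36 and 9.89 in Il10+/+ lungs (difference 1.96, SE 0.55, adjusted p = 1). S100a8 measured 10.90, 10.38 and 11.41 in Il10-/- lungs, against 9.12, 8.88 and 9.28 in Il10+/+ lungs (difference 1.81, SE 0.52, adjusted p = 1). In both genes the groups were apart and Il10-/- replicate 3 was the highest array. In air the differences were -0.24 (SE 0.48) for S100a9 and -0.19 (SE 0.45) for S100a8.

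The windows around the start sites of these 3 genes are shown because they lead the inflammatory genes in size. Each runs from 250 bases before to 50 after a RefSeq start in GRCm38.p6, read 5' to 3' on the gene's strand. The RefSeq gene of Saa3 spans 46711998 to 46719615 of chromosome 7, so its window lies inside the gene and not at its outer end. Capitals mark TATAAA, the letters of a TATA box, and TTNCNNAA, letters of sites bound by C/EBP factors, on either strand. The windows are chr7:46715627-46715926 (minus strand) for Saa3, chr3:90668821-90669120 (plus) for S100a8 and chr3:90695672-90695971 (minus) for S100a9.
Saa3: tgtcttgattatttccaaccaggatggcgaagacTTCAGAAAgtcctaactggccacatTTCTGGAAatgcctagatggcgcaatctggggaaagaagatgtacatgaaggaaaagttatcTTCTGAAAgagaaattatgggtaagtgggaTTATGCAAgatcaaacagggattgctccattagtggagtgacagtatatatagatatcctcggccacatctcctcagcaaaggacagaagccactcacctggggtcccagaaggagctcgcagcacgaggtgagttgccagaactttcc
S100a8: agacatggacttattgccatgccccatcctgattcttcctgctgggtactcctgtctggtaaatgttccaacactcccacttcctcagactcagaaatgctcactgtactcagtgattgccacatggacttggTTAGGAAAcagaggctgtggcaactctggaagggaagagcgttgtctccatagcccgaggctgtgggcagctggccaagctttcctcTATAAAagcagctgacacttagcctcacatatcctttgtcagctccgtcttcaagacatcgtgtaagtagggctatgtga
S100a9: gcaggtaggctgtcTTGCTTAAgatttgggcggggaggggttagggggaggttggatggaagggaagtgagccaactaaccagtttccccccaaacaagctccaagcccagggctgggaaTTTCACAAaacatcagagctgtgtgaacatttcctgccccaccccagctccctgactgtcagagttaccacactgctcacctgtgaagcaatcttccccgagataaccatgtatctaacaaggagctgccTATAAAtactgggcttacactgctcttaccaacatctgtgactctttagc
TTNCNNAA occurred 4 times in the Saa3 window, once for S100a8 and in a pair of places for S100a9, and 40.7% of all 32851 promoter windows hold it. TATAAA began at -30 from the start used in the S100a8 window and at 0, the start itself, in the S100a9 window. It occurred in 13.6% of all windows. The STAT-type letters TTCNNNGAA, present in 8.3% of all windows, and the NF-κB-type letters (GGGA, any 4 bases, CC), present in 20.7%, were in none of the 3, which says only that these letters are not in these windows.

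Of 24 listed neutrophil genes, 19 were measured. Of these, 18 had a positive difference, 8 lay higher at an unadjusted p under 0.05 and 0 were called (0.0242% of all genes were called higher). On all 3 Il10-/- arrays 8 of the 19 lay above all Il10+/+ arrays, where 3.99% of all genes did. The median of the list was 0.36, beside -0.02 over all genes. Csf3r, the receptor for the growth factor of neutrophils, measured 8.42, 8.43 and 9.09 in Il10-/- lungs, against 7.41, 7.71 and 7.38 in Il10+/+ lungs (difference 1.14, SE 0.32). Clec4d, a C-type lectin of myeloid cells, differed by 0.86 (SE 0.27), the gelatinase gene Mmp9 by 0.78 (SE 0.25), and the decoy receptor gene Il1r2 by 0.50 (SE 0.16). Mmp9 measured 6.90, 6.45 and 7.67 in Il10-/- lungs, against 6.26, 6.25 and 6.19 in Il10+/+ lungs, and without Il10-/- replicate 3 the differences were 0.44 for Mmp9 and 0.31 for Il1r2.

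Genes of neutrophil granule proteins were mixed. The groups did not overlap in Mmp9 and in Lcn2 (difference 0.48, SE 0.22), whereas they overlapped in Mmp8 (0.46, SE 0.31), Ngp (0.36, SE 0.89) and Camp (0.17, SE 0.66). Mpo averaged 4.05 in Il10-/- and 3.93 in Il10+/+ lungs, and Elane 4.32 in both, which are low values on this scale. Ltf, lactoferrin, was the only member of the list with a negative difference (-0.98, SE 0.67), and its groups did not overlap. The summed signal of the list, as log2, was 13.28, 13.03 and 13.81 in Il10-/- lungs, against 12.43, 12.50 and 12.63 in Il10+/+ lungs. In whole lung, fewer or more cells of a type cannot be told apart from a change of RNA per cell. The list's median difference was 0.36 at 48 hr, 0.58 at 24 hr and -0.09 in air. The air median, like those of other lists, holds the library labelled Il10-/- air 48 hr replicate 1.

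Acute phase genes and STAT3 targets were mixed as a list. Of 26 measured, 14 were positive, 5 lay above and 1 below without overlap (3.99% and 5.45% of all genes did), and 0 were called, with a median of 0.01. Steap4, a metalloreductase induced in inflammation, measured 7.66, 7.71 and 8.37 in Il10-/- lungs, against 7.33, 7.25 and 7.40 in Il10+/+ lungs, without overlap (difference 0.58, SE 0.23). Lcn2, the siderophore-binding lipocalin, measured 11.37, 11.31 and 12.09 in Il10-/- lungs, against 11.09, 11.06 and 11.18 in Il10+/+ lungs, and Il10-/- replicate 3 was again the highest array.

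Other myeloid lists had smaller medians. Of 10 measured monocyte genes, 9 had positive differences, with a median of 0.26 and 0 calls. F13a1, the coagulation factor XIII subunit of monocytes and macrophages, measured 8.28, 8.49 and 8.64 in Il10-/- lungs, against 7.95, 7.83 and 7.74 in Il10+/+ lungs (difference 0.63, SE 0.28). Of 14 complement genes, 11 were positive, with a median of 0.21, and the receptor gene C5ar1 differed by 0.34 (SE 0.16). Alveolar macrophage genes ran the other way in 10 of 13, with a median of -0.14.

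Among cytokines and their receptors, Il1b, which the inflammasome turns into active IL-1β, measured 8.44, 8.52 and 8.69 in Il10-/- lungs, against 7.87, 7.75 and 7.81 in Il10+/+ lungs (difference 0.74, SE 0.28, adjusted p = 1). The groups did not overlap. Of 16 genes of IL-1 and the inflammasome 13 were positive, with a median of 0.16 and 0 calls. The chemokine receptor gene Ccr1 measured 7.06, 7.33 and 7.74 in Il10-/- lungs, against 6.71, 6.85 and 6.80 in Il10+/+ lungs (difference 0.59, SE 0.20), while its second probe set gave 0.05 (SE 0.11). Cxcl13, which attracts B cells, differed by 0.95 (SE 0.29), and Cxcr5, its receptor, by -0.80 (SE 0.27).

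Several genes of interleukin-10 and NF-κB signaling differed little. Stat3 measured 11.44, 10.95 and 11.47 in Il10-/- lungs, against a mean of 11.13 (SD 0.13) in Il10+/+ lungs, with overlapping groups (difference 0.15, SE 0.18). The differences were 0.07 (SE 0.25) for Socs3, -0.06 (SE 0.20) for 1 probe set of the costimulatory gene Cd86, 0.03 (SE 0.11) for Cxcl2, which encodes the neutrophil attractant MIP-2, -0.07 (SE 0.14) for Nos2 and -0.003 (SE 0.14) for Rela. The sign of each of these except Stat3 turned under at least 1 alternative. Cxcl2 averaged 4.47 in Il10-/- and 4.44 in Il10+/+ lungs, and Nos2 4.71 and 4.78. These are low values on this scale, so the arrays say little on a genotype difference in Cxcl2 and Nos2. The other probe set of Cd86 measured 4.99, 5.15 and 5.66 in Il10-/- lungs, against 4.76, 4.91 and 4.92 in Il10+/+ lungs, without overlap (difference 0.40, SE 0.18, adjusted p over all probe sets 1). Tnf measured 5.34, 5.38 and 5.25 in Il10-/- lungs, against 5.39, 5.46 and 5.42 in Il10+/+ lungs, a difference of -0.10 (SE 0.13). Il6 differed by 0.39 (SE 0.24), Il1rn by 0.41 (SE 0.26), Il1a by -0.13 (SE 0.10), Il33 by -0.09 (SE 0.22), S100a14 by 0.17 (SE 0.28) and the histone acetyltransferase gene Hat1 by -0.01 (SE 0.14), with the signs of Il33, S100a14 and Hat1 also turning. Of 24 genes the study names, 22 were measured, 14 were positive and 3 were called, the same 3 as above. Some of the 24 were picked out there on these arrays, so the list is no independent evidence of direction. Of 19 genes of NF-κB and TNF signaling 9 were positive, with a median of -0.003 and 0 calls.

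Negative differences were common among genes of dividing cells. In the list for replication and division, 47 genes were measured, of which 44 had a negative difference, 5 lay lower at an unadjusted p under 0.05, 10 lay below all Il10+/+ arrays on all 3 Il10-/- arrays (5.45% of all genes did), and 0 were called. The median was -0.17. Mki67, the marker Ki-67 of cycling cells, measured 7.25, 7.96 and 8.56 in Il10-/- lungs, against 9.36, 9.20 and 8.73 in Il10+/+ lungs (difference -1.17, SE 0.33, adjusted p = 1). Cenpf, a kinetochore protein outside the list, measured 5.45, 5.96 and 6.01 in Il10-/- lungs, against 7.46, 7.39 and 6.18 in Il10+/+ lungs (difference -1.21, SE 0.28, adjusted p = 0.616). In both genes Il10+/+ replicate 3 was the lowest of its group. Without it Cenpf differed by -1.62 and was called (adjusted p = 0.0223). Its second probe set gave -0.08 (SE 0.13) with overlapping groups, and the mean of both gave -0.64. In the paper, cells stained for Ki-67 around small airways and vessels were more prominent in Il10-/- than in Il10+/+ lungs after the same exposure. The array signal of Mki67 and the median of the list run the other way, and the reason was not tested.

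Genes of mitosis and DNA synthesis gave smaller differences. Spag5, a spindle protein, measured 5.08, 4.71 and 4.91 in Il10-/- lungs, against 5.80, 5.29 and 5.70 in Il10+/+ lungs (difference -0.69, SE 0.17). Its other probe sets gave -0.10 (SE 0.16) and -0.15 (SE 0.14), both with overlap, and the mean of all gave -0.32. The mitotic kinases Aurka, Plk1 and Aurkb differed by -0.46 (SE 0.22), -0.40 (SE 0.16) and -0.38 (SE 0.14), with -0.09 (SE 0.12) in a second probe set of Aurkb. The ribonucleotide reductase subunit gene Rrm2, needed for DNA synthesis, differed by -0.31 (SE 0.42). The median of the list was 0.12 at 48 hr, with 31 of 47 positive, 0.16 at 24 hr, with 29 of 47 positive, and -0.11 in air, with 12 of 47 positive. In air Mki67 lay between 5.60 and 6.39 on the Il10-/- arrays, against 6.53 to 7.01 on the Il10+/+ arrays, without overlap (difference -0.69, SE 0.29, adjusted p = 0.615). Between 72 and 48 hr the genotype difference moved by -1.21 (SE 0.40, unadjusted p = 0.00585) for Cenpf, -1.13 (SE 0.47, unadjusted p = 0.0257) for Mki67 and -1.01 (SE 0.24, unadjusted p = 0.000355) for Spag5, each with an adjusted p of 1. At 24 hr the Mki67 difference was -1.14 (SE 0.37).

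Genes of B cells were mostly negative as well. Of 14 measured genes of B and plasma cells 11 were negative, with a median of -0.60, the lowest of all lists, and 0 calls. Cd79a, a signaling chain of the B cell receptor, measured 7.70, 6.19 and 8.25 in Il10-/- lungs, against 8.76, 8.15 and 8.49 in Il10+/+ lungs, with overlap (difference -1.09, SE 0.57). The kinase gene Blk, also of B cells, differed by -0.64 (SE 0.24) without overlap. Xbp1, a factor of secretory cells, ran the other way by 0.28 (SE 0.11). The list's median was -0.45 at 48 hr, -0.66 at 24 hr and -0.61 in air.

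**Figure D5:**
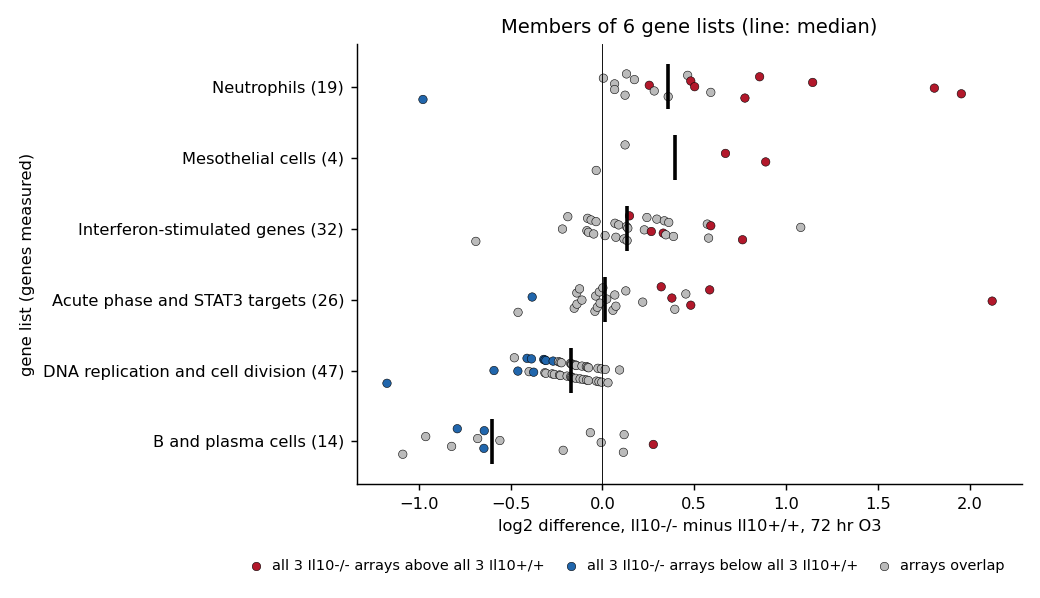
The log2 difference at 72 hr O3 of each measured member of 6 gene lists, with a line at each median; red and blue points have all 3 Il10-/- arrays above or below all 3 Il10+/+ arrays. Of 19 neutrophil genes 18 are positive, and of 47 genes of cell division 44 are negative, with Mki67 farthest to the left at -1.17; none of the points shown was called.

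Genes of the mesothelium, the cell layer that covers the lung, were positive in 3 of 4. Upk3b, a membrane protein of these cells, measured 9.05, 9.13 and 8.97 in Il10-/- lungs, against 8.23, 8.05 and 8.21 in Il10+/+ lungs (difference 0.89, SE 0.23, adjusted p = 0.842). Mesothelin, Msln, measured 8.45, 8.79 and 8.62 in Il10-/- lungs, against 7.83, 7.81 and 8.21 in Il10+/+ lungs (difference 0.67, SE 0.23). Neither gene overlapped between the groups. In the rest of the list, Wt1 (0.12, SE 0.13) and Krt19 (-0.03, SE 0.18), the groups overlapped. Outside the list, Rspo1, a Wnt agonist, differed by 0.76 (SE 0.19) and Bnc1, a zinc finger protein, by 0.59 (SE 0.15). Both had non-overlapping groups and were named for their small p. The Upk3b difference was -0.29 (SE 0.23) at 48 hr, -0.42 (SE 0.26) at 24 hr and 0.52 (SE 0.20) in air.

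Interferon-stimulated genes were positive in 23 of 32, with a median of 0.14 and 0 calls. The immunity-related GTPase genes Igtp and Irgm1 differed by 0.76 (SE 0.27) and 0.59 (SE 0.22). Igtp measured 9.32, 8.27 and 8.83 in Il10-/- lungs, against 8.10, 8.18 and 7.86 in Il10+/+ lungs, without overlap. Cxcl9, an interferon-γ-induced chemokine, stood on 1 array: it measured 4.88, 4.68 and 8.01 in Il10-/- lungs, against 4.96, 4.69 and 4.68 in Il10+/+ lungs.

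Genes of the resident epithelium, endothelium and matrix were close to 0 as lists. The medians were -0.03 for 12 genes of alveolar type 2 cells, -0.03 for 8 of type 1 cells, -0.001 for 14 of club cells, -0.04 for 18 of endothelium and -0.02 for 24 collagens and provisional matrix genes, with 0 calls in each. Among single genes of the airway, the gel-forming mucin Muc5b measured 8.12, 7.67 and 8.73 in Il10-/- lungs, against 9.75, 9.88 and 9.44 in Il10+/+ lungs, without overlap (difference -1.52, SE 0.53, adjusted p = 1). The IGF-binding protein gene Igfbp3 measured 6.84, 6.96 and 6.72 in Il10-/- lungs, against 7.87, 8.33 and 7.36 in Il10+/+ lungs (difference -1.01, SE 0.27). Antioxidant genes and NRF2 targets were positive in 21 of 31, with a median of 0.05 and 0 calls. Gstm2, a glutathione transferase, differed by 0.29 (SE 0.10), and Sod2, the mitochondrial superoxide dismutase, by 0.21 (SE 0.13), both without overlap. Pla2g7, the acetylhydrolase of platelet-activating factor, measured 6.46, 6.36 and 7.03 in Il10-/- lungs, against 5.58, 5.44 and 5.47 in Il10+/+ lungs (difference 1.12, SE 0.30).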

How the data were processed

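Left lung RNA was read on 26 Affymetrix mouse arrays. The deposited values are log2 signals that the authors obtained by Robust Multichip Average in RMAExpress (version not given in the sources used here), and they were used unchanged. How many arrays there are sets the precision. Of 22690 probe sets, 20393 had 1 gene symbol in the platform annotation, while 691 with several and 1606 with none were left out. A gene with several probe sets (4958 genes) was represented by that of highest mean. Chromosomes are those of GRCm38.p6, found for 12370 genes.

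Means were fitted for each genotype and exposure, air of 24 and 48 hr pooled, by lmFit and eBayes of limma 3.58.1 (R 4.3.3), with Benjamini-Hochberg adjustment over 12394 genes. The study's methods left out 1 Il10-/- O3 24 hr array after clustering without naming it. Replicate 2, whose mean r with the other arrays was 0.8367, was taken to be that array, which left 25. Non-overlap means that every Il10-/- array lay on 1 side of every Il10+/+ array.

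The comparison, the gene lists and the naming rule were chosen with earlier results of these data known. The rule takes genes the study names, genes called (in a direction with fewer than 15, those of smallest unadjusted p up to 10), and of each list up to 4 members called or else the 2 of smallest p. Other genes in the text were chosen after their values were seen. Lists carry no test. The fit was tested on simulated data, and matplotlib 3.10.9 (Python 3.11.15) drew the plots. Alternatives were the arrays fitted, array weights, a covariate for the letter c, median centring, low genes left out, the probe set rule, the replicate block and leaving out each array.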

Additional observations from a re-analysis of the deposited data

Results flagged for a closer look

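In groups of 4 arrays (both air groups), 1 array was set against the rest for 13 genes in each genotype, 26 groups in all, and 2 were far from the other 3; chance marks about 1 group in 20. Groups of 3 arrays, those of 72 hr among them, were not tested this way. Both values came from the library labelled Il10-/- air 48 hr replicate 1: Il10 was lowest there at 3.87, against 6.29 to 6.72 on the other 3 Il10-/- air arrays, and Chil1 was highest there at 12.23, against 9.46 to 9.78. On the Il10+/+ air arrays the 2 genes lay between 3.92 and 4.25 and between 12.12 and 12.38. On the same library Ctse was 5.55, Stk25 9.96 and Nnt 7.66, inside or beside the Il10+/+ air ranges of 5.64 to 6.33, 9.36 to 9.88 and 7.47 to 7.89, and Wdfy1 was 7.003, between the ranges of 8.21 to 8.53 on the other Il10-/- and 6.37 to 6.70 on the Il10+/+ air arrays.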

How the results depend on the processing

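The 3 calls at 72 hr became 7 with only the 6 arrays compared, 13 with array weights, 6 without the library labelled Il10-/- air 48 hr replicate 1, and 0 to 3 with 1 of the 6 arrays left out; the other settings without a replicate block gave 2 to 4. Il10 and Wdfy1 were called in each of these except without Il10-/- or Il10+/+ replicate 2 and, for Il10, where the genes of lowest mean, Il10 among them, were left out; Ctse was lost with all 26 arrays, the letter c that ends 1 of the 6 source names as a covariate, the mean of its probe sets, and every probe set tested by itself. Whether the replicate numbers pair the arrays was not settled. Same-number r was 0.418, 0.102 and 0.0933, and r between differently numbered arrays ran from -0.328 to 0.184. With the replicate block 2 genes were called, Il10 and Wdfy1. With the replicate block and only the 6 arrays 10 were called, S100a8, S100a9 and Saa3 among them. The difference at 72 hr minus that in air gave 1 call (Saa3) with array weights, and that minus 24 hr gave 0 to 523 with 1 array left out. Of the differences of named genes, 1284 values kept direction and side of the threshold, 22 came under it, 14 left it and 30 changed sign, these last all of genes that were not called. With 1 array left out the range was -0.009 to 0.315 for S100a14, -0.127 to 0.356 for Socs3, -0.140 to 0.065 for Cd86, -0.070 to 0.130 for Cxcl2, -0.170 to 0.029 for Nos2, -0.079 to 0.076 for Hat1, -0.101 to 0.076 for Rela, -2.434 to 0.049 for Bpifa1, -0.059 to 0.006 for Sftpc and -0.124 to 0.008 for Sftpb. Array weights gave -0.037 for Cxcl2 and 0.029 for Hat1. The letter c gave -0.003 for Cxcl2, 0.017 for Nos2 and Il33, 0.025 for Hat1 and 0.014 for Rela. Median centring gave 0.025 for Hat1, 0.028 for Rela and 0.007 for Sftpc, and the mean of probe sets gave 0.170 for Cd86. The cause was not tested. The median SE of 0.13 limits what 3 arrays per genotype can show.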

Other observations

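Some genes varied more among the Il10-/- arrays at 72 hr than between genotypes. Reg3g, an antimicrobial lectin of airway epithelium, measured 7.71, 4.92 and 10.29 in Il10-/- lungs, against 9.74, 9.88 and 9.08 in Il10+/+ lungs. Bpifa1, a secreted protein of the upper airway, measured 11.04, 6.17 and 11.13 in Il10-/- lungs, against 10.55, 11.62 and 10.94 in Il10+/+ lungs. Il10-/- replicate 2 was thus the lowest of the 6 arrays in both.

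Clock genes set Il10-/- replicate 3 apart. Dbp, an output gene of the clock, measured 6.09, 4.40 and 8.55 in Il10-/- lungs, against 4.89, 5.24 and 5.36 in Il10+/+ lungs. Arntl and Npas2, which drive the positive limb, measured 7.63, 7.97 and 5.99 and 6.18, 5.89 and 4.69 in Il10-/- lungs, against 7.77, 7.86 and 7.80 and 6.49, 6.69 and 6.03 in Il10+/+ lungs. Per1, of the negative limb, was below every Il10+/+ array on all 3 Il10-/- arrays, at 7.08, 7.68 and 7.11, against 8.95, 8.75 and 8.34 (difference -1.39, SE 0.43, adjusted p = 1). The time of day of each necropsy was not given in the sources used here.

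Genes of heart muscle, which can enter with lung tissue, averaged 6.87, 6.81 and 7.80 as a list of 12 on the Il10-/- arrays, against 6.93, 8.27 and 7.01 on the Il10+/+ arrays, with Il10-/- replicate 3 and Il10+/+ replicate 2 the highest. Their part in the differences above was not tested. The inducible heat shock genes Hspa1a and Hspa1b differed by -0.92 (SE 0.55) and -0.60 (SE 0.46), with overlapping groups.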
